A study of Oryza sativa with 48 samples.

Results

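The respiratory burst oxidases of rice, OsRbohA to OsRbohI, are 9 genes, and their transcripts were followed here over 16 groups of seedling libraries. They are 9 rows of the 35667 identifiers in the authors' count table, taken by identifier with a rule that uses no measured value, though the family was picked with earlier results of these data known. The identifiers are Os01g0734200 for OsRbohA, Os01g0360200 for OsRbohB, Os05g0528000 for OsRbohC, Os05g0465800 for OsRbohD, Os01g0835500 for OsRbohE, Os08g0453700 for OsRbohF, Os09g0438000 for OsRbohG, Os12g0541300 for OsRbohH and Os11g0537400 for OsRbohI. By these identifiers, on genome build IRGSP-1.0, OsRbohA, OsRbohB and OsRbohE lie on chromosome 1, OsRbohC and OsRbohD on chromosome 5, OsRbohF on chromosome 8, OsRbohG on chromosome 9, OsRbohI on chromosome 11 and OsRbohH on chromosome 12. The count table holds identifiers without names, so the names are those that came with the gene list, and positions and sequences of the genes were not used here.

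RNA was sequenced from the root and the 2nd leaf of 2 genotypes, the wild type of the cultivar Kitaake (WT) and the genotype labelled aoc. The labels do not say how aoc was made, and the study sets its salt response beside that of WT. Seedlings had 11 days of hydroponic culture, were sampled untreated (0 h) or after 1, 6 or 72 h in 100 mM NaCl, and each of the 16 groups had 3 libraries of 3 plants. Untreated plants were taken at 0 h alone, so hours in salt cannot be told apart from plant age or, at 1 h and 6 h, from the hour of the day, and root and leaf RNA were extracted with different kits, so tissue and kit cannot be told apart either.

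Respiratory burst oxidases are NADPH oxidases of the plasma membrane. They take electrons from NADPH inside the cell and pass them to oxygen outside it, which gives superoxide and then hydrogen peroxide in the cell wall space. Calcium, calcium-dependent kinases and Rac GTPases switch the enzymes on, and plants use them in immunity, root hair growth, cell wall changes and responses to drought and salt. In rice, OsRbohB works with the GTPase OsRac1 in immune responses, and OsRbohH serves the formation of aerenchyma, the gas channels of roots short of oxygen. OsRbohI was reported as a gene that a calcium-dependent kinase holds low under salt, and OsRbohA was the first plant relative of the phagocyte oxidase to be cloned. A transcript level does not measure the activity of these enzymes.

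Values are levels in CPM, counts per 1 M counts of a library, scaled with TMM factors within a tissue, unless a sentence names a difference. Root libraries held 28.6 M to 71.7 M counts, the most in WT 1 h replicate 3, and leaf libraries held 29.9 M to 41 M. A gene with 3 counts in a library thus stood at 0.0419 to 0.105 CPM (root) or 0.0731 to 0.1 CPM (leaf). A gene was called where its edgeR p-value, adjusted over all identifiers tested in that comparison, was under 0.05. Each share of all identifiers called counts both directions, also where it stands beside genes that rose or fell. Of the 9 genes, 8 passed the filter on low counts in root (all but OsRbohA) and 7 in leaf (all but OsRbohA and OsRbohH). In whole tissue, fewer cells of a type and less RNA per cell cannot be told apart. Markers of root and leaf and the gene for allene oxide cyclase were not analysed here.

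**Figure D1:**
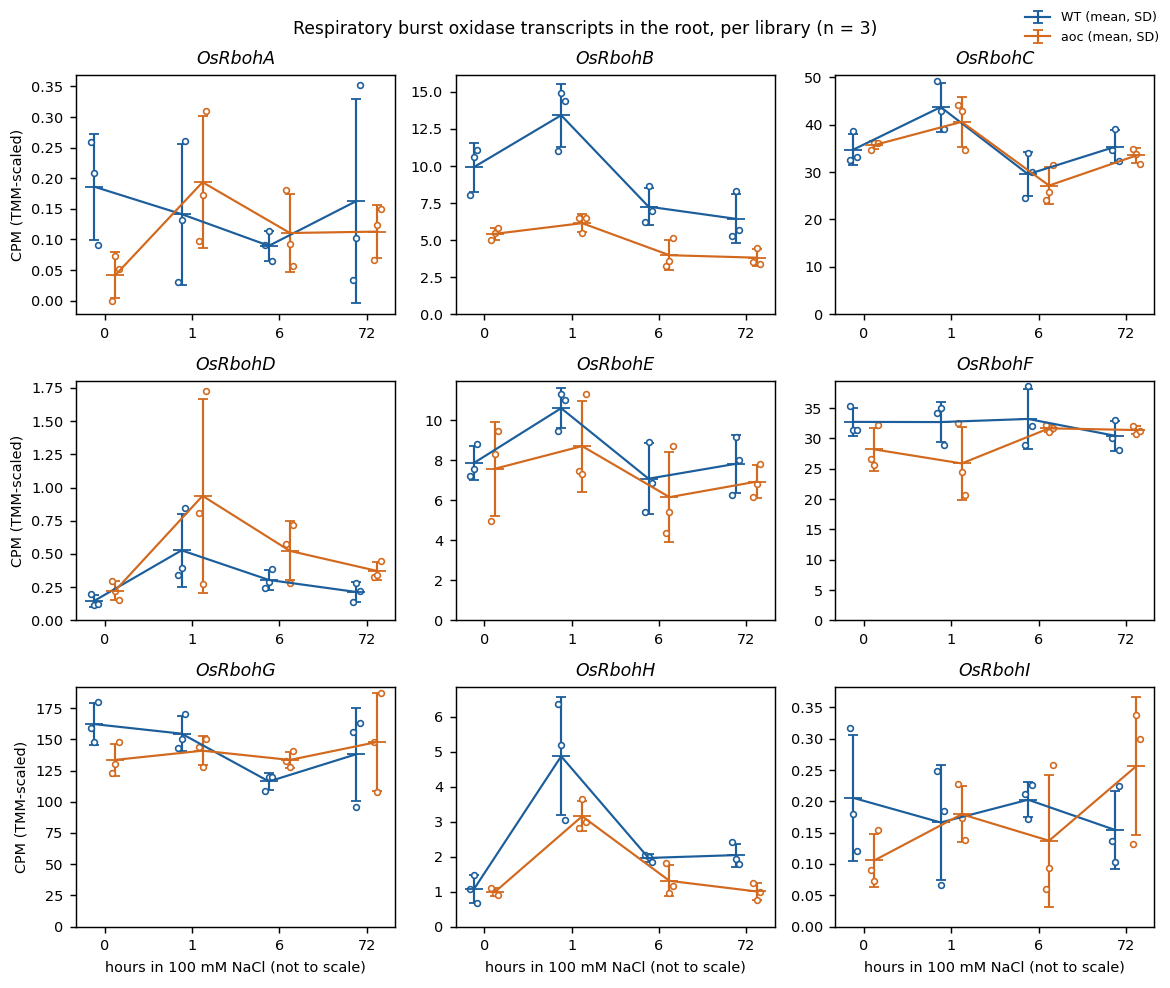
Levels of the 9 genes in root, in CPM, against hours in 100 mM NaCl, which are spaced evenly and not to scale; open points are single libraries, and lines and bars join the mean ± SD of 3 libraries of WT (blue) and aoc (orange). OsRbohB lay lower in aoc than in WT at each hour, and OsRbohH was highest at 1 h in both genotypes.

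**Figure D2:**
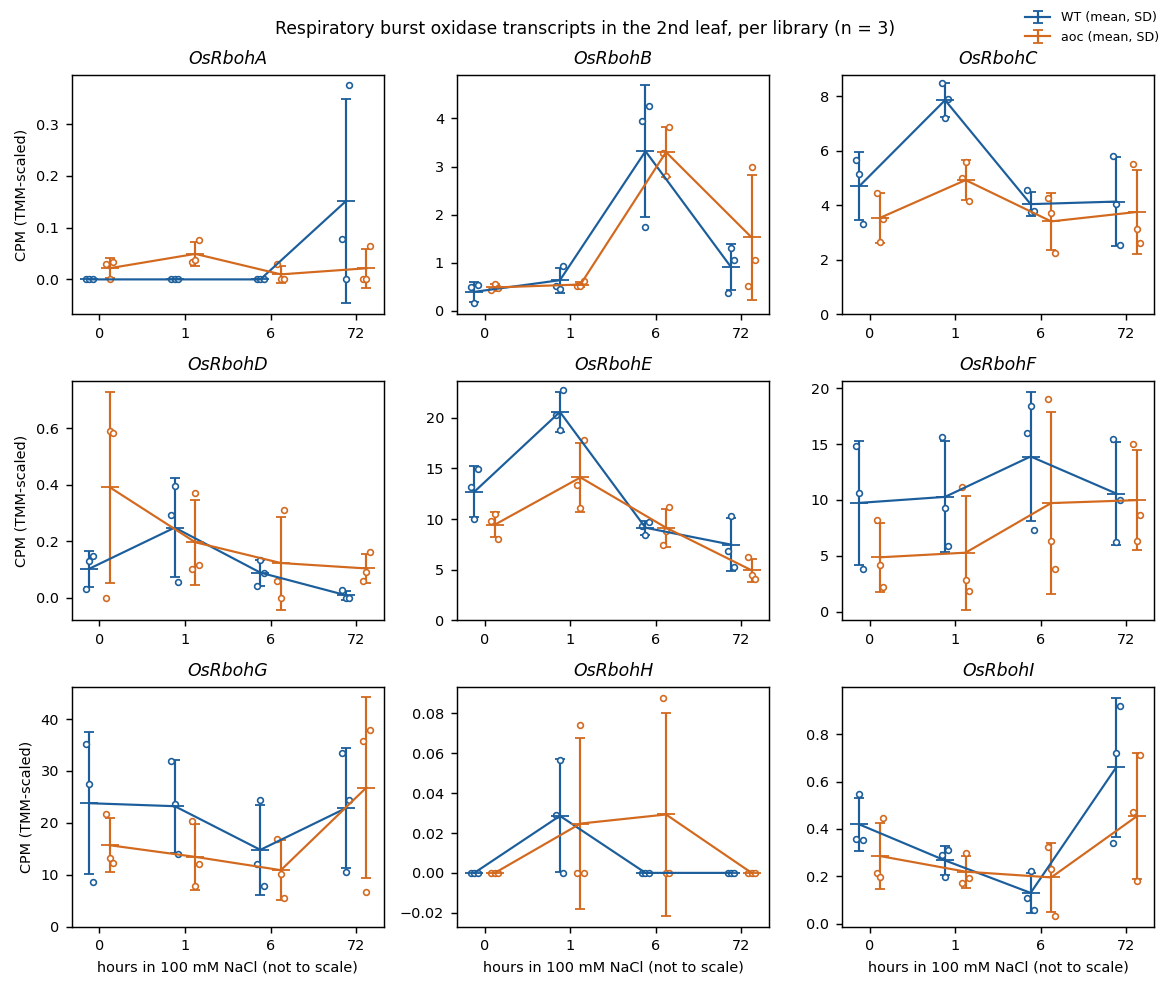
Levels of the 9 genes in the 2nd leaf, in CPM, against hours in 100 mM NaCl, drawn as in the plot of root levels. OsRbohB stood highest at 6 h in both genotypes, OsRbohE stood highest at 1 h, and OsRbohH had 8 reads over the 24 leaf libraries.

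Before salt, the family was split between the tissues. OsRbohB, OsRbohC, OsRbohF, OsRbohG and OsRbohH were higher in root than in leaf in both genotypes, and OsRbohE and OsRbohI were higher in leaf. The remaining tested gene, OsRbohD, was not called in either genotype. In the fit of all 48 libraries, root and leaf differed for 7 of 8 tested genes in WT and for 7 of 8 in aoc, 5 higher in root and 2 higher in leaf each time. Most identifiers differed between the tissues, 71.2% of those tested in WT and 73.1% in aoc, so these counts lie near the level of all genes. The median difference, log2 root minus leaf, was 1.74 over the 8 genes in WT and 2.26 in aoc, against 0.23 and 0.26 over all identifiers tested. Setting OsRbohH at a lower bound (log2 5.21 in WT and 5.06 in aoc) could not move this median, as the bound lay above it.

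The largest of these differences with reads in both tissues was that of OsRbohB. On the scale of the 48 libraries, its level in the 3 WT root libraries was 6.83, 9.01 and 9.49 CPM, and in WT leaf it was 0.613, 0.190 and 0.652 CPM. In aoc it was 4.21, 4.59 and 4.97 CPM in root and 0.529, 0.690 and 0.592 CPM in leaf. No root library overlapped a leaf library. OsRbohB was 17.5-fold higher in WT root than in WT leaf (log2 difference 4.13 ± 0.46 SE, edgeR adjusted p = 6.84e-10) and 7.57-fold higher in aoc root than in aoc leaf (2.92 ± 0.44, adjusted p = 3.68e-07).

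OsRbohH, the aerenchyma gene, was almost absent from the leaf counts. It had 37, 49 and 22 reads in the WT root libraries at 0 h and 37, 26 and 35 in aoc root, and it had 0 reads in all 6 leaf libraries at 0 h. The floor was 3 counts over the leaf group, which covers counting error only. By counts per group total, without TMM factors, OsRbohH was at least 37.0-fold higher in root in WT and at least 33.3-fold in aoc. With the TMM factors of the 48 libraries these bounds would be lower. The WT root mean was 0.904 CPM on that scale and 1.07 CPM unscaled. Its 8 leaf reads lay in 4 libraries, 2 at 1 h in WT, 1 at 1 h in aoc and 1 at 6 h in aoc, with 1, 2, 2 and 3 reads.

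OsRbohE ran the other way. Its level in WT at 0 h was 6.14, 6.41 and 7.54 CPM in root and 16, 12.1 and 18.4 CPM in leaf on the scale of the 48 libraries, without overlap. The log2 difference, root minus leaf, was -1.21 ± 0.26 in WT (edgeR adjusted p = 0.000119) and -0.86 ± 0.26 in aoc (adjusted p = 0.00385). OsRbohI, a gene of few reads, was also lower in root, by -1.53 ± 0.56 in WT (adjusted p = 0.0158) and -1.90 ± 0.62 in aoc (adjusted p = 0.00708). Its WT call was lost without root WT 0 h replicate 2 (adjusted p = 0.0516), root WT 0 h replicate 3 (0.0766) or leaf WT 0 h replicate 2 (0.0698), and its aoc call without leaf aoc 0 h replicate 3 (0.0657).

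OsRbohC and OsRbohG were several times higher in root, and OsRbohF less so. The log2 difference of OsRbohC was 2.36 ± 0.25 in WT and 2.79 ± 0.26 in aoc, with edgeR adjusted p of 3.29e-10 and 1.16e-11. For OsRbohG it was 2.26 ± 0.50 in WT and 2.55 ± 0.51 in aoc (adjusted p = 0.000165 and 3.90e-05). For OsRbohF it was 1.23 ± 0.52 in WT (adjusted p = 0.0354) and 1.98 ± 0.54 in aoc (adjusted p = 0.00146). The WT value of OsRbohF was not called without root WT 0 h replicate 1, 2 or 3 (adjusted p = 0.0714, 0.0537 and 0.0540) or leaf WT 0 h replicate 2 or 3 (0.0614 and 0.182). OsRbohD gave -0.00 ± 0.91 in WT and -1.33 ± 0.80 in aoc, and without leaf aoc 0 h replicate 1 the aoc value was -1.92 (adjusted p = 0.0220).

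In the root, the transcripts called higher after salt than at 0 h were those of OsRbohH and OsRbohD, and both rose at 1 h in both genotypes. OsRbohB fell at 72 h in WT and OsRbohC fell at 6 h in aoc. OsRbohE in WT root was at 7.23, 7.55 and 8.81 CPM at 0 h and at 9.47, 11.3 and 11.0 CPM at 1 h, without overlap. The fit of all root groups did not call it, while the compared groups alone did (log2 fold change 0.45, edgeR adjusted p = 0.0310). At 1 h, 2 of 8 tested genes rose and 0 fell in WT, where 34.1% of all identifiers tested were called, and the same was counted in aoc, where 34.7% were called. At 6 h, 1 of 8 rose in WT (24.9% of all identifiers called) and 1 of 8 fell in aoc (33.3%). At 72 h, 1 of 8 rose and 1 fell in WT (18.9%), and 0 of 8 were called in aoc (19.8%), where edgeR gave 2 genes an unadjusted p under 0.05. DESeq2 also called 0 there, while edgeR with the replicate number as a block called OsRbohB lower (-0.51, adjusted p = 0.0386). The share of the family that was called was below that of all identifiers in each of these 6 comparisons other than WT at 72 h.

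OsRbohH showed the clearest rise in root. Its level in WT root was 1.07, 1.46 and 0.662 CPM at 0 h and 6.37, 5.20 and 3.03 CPM at 1 h. It was 2.05, 2.00 and 1.84 CPM at 6 h and 2.41, 1.92 and 1.79 CPM at 72 h. All 3 treated groups of WT lay above the 0 h libraries without overlap, and the 1 h group lay highest. From a mean of 1.06 ± 0.40 CPM (SD, n = 3) it rose 4.54-fold at 1 h (log2 fold change 2.18 ± 0.30 SE, edgeR adjusted p = 1.68e-05), 1.84-fold at 6 h (0.88 ± 0.30, adjusted p = 0.0383) and 1.91-fold at 72 h (0.94 ± 0.30, adjusted p = 0.0365). These 3 values share the 0 h libraries.

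In aoc root, OsRbohH was at 1.11, 0.952 and 0.897 CPM at 0 h and at 2.82, 3.63 and 3.00 CPM at 1 h, again without overlap. It rose 3.19-fold at 1 h (log2 fold change 1.67 ± 0.30, edgeR adjusted p = 0.000276). At 6 h the aoc libraries held 1.81, 0.963 and 1.14 CPM and at 72 h 1.25, 0.769 and 0.988 CPM, which overlapped with 0 h at both hours. The log2 fold changes were 0.41 ± 0.31 at 6 h (adjusted p = 0.326) and 0.02 ± 0.31 at 72 h (adjusted p = 0.970), and neither was called. From 1 h to 6 h OsRbohH fell by 1.30 ± 0.29 on the log2 scale in WT (adjusted p = 0.00173) and by 1.27 ± 0.30 in aoc (adjusted p = 0.00282).

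The 1 h rise of OsRbohH and its fall by 6 h were called with each compared library left out in turn. The later WT rises were near the threshold. At 6 h the call was lost without root WT 0 h replicate 1 or 3 (edgeR adjusted p = 0.0823 and 0.179) or root WT 6 h replicate 1, 2 or 3 (0.0971, 0.0793 and 0.0596). At 72 h it was lost without root WT 0 h replicate 1 or 3 (0.0737 and 0.166) or root WT 72 h replicate 1 or 2 (0.107 and 0.0701), and a fit of the compared groups alone gave 0.0804 at 6 h and 0.108 at 72 h. In order of mean level in root, OsRbohH stood at 4.87 CPM in WT and 3.15 CPM in aoc at 1 h, at 2.04 and 1.96 CPM in WT at 72 h and 6 h, and at 1.31 CPM in aoc at 6 h. WT at 0 h, aoc at 72 h and aoc at 0 h followed with 1.06, 1.00 and 0.986 CPM. Neighbours in this order overlapped, except aoc at 1 h against WT at 72 h, and WT at 6 h against aoc at 6 h.

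OsRbohD had few reads, 4 to 55 in a root library. Its level in WT root was 0.202, 0.119 and 0.120 CPM at 0 h and 0.342, 0.397 and 0.843 CPM at 1 h, without overlap. In aoc root it was 0.300, 0.220 and 0.154 CPM at 0 h and 0.811, 0.277 and 1.72 CPM at 1 h, where replicate 2 lay inside the range of 0 h. The log2 fold change at 1 h was 1.86 ± 0.57 in WT (edgeR adjusted p = 0.0165) and 2.05 ± 0.54 in aoc (adjusted p = 0.00631). The WT call was lost without root WT 0 h replicate 2 (adjusted p = 0.0623), root WT 0 h replicate 3 (0.0599) or root WT 1 h replicate 3 (0.128), and the aoc call without root aoc 1 h replicate 3 (log2 fold change 1.28, adjusted p = 0.0718). At 6 and 72 h its mean lay between 0.214 and 0.523 CPM, and it was not called against 0 h.

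OsRbohB in WT root was at 8.04, 10.6 and 11.1 CPM at 0 h, at 11.0, 14.9 and 14.4 CPM at 1 h, at 6.21, 8.62 and 6.95 CPM at 6 h, and at 5.30, 8.32 and 5.69 CPM at 72 h. Its highest 72 h library lay just above its lowest 0 h library. The fall at 72 h was 1.54-fold (log2 fold change -0.62 ± 0.20, edgeR adjusted p = 0.0371). It did not pass without root WT 0 h replicate 2 or 3 (adjusted p = 0.116 and 0.139) or root WT 72 h replicate 1 or 3 (0.129 and 0.112), nor with the compared groups alone (0.105). In aoc root the log2 fold change of OsRbohB at 72 h was -0.51 ± 0.20 (adjusted p = 0.0875) and was not called, though it was with the replicate number as a block (0.0386). OsRbohC, at 0.33 ± 0.13 on the log2 scale from 0 h to 1 h in WT root, lay at the threshold (adjusted p = 0.0512), and DESeq2 called it (0.0357), as did edgeR without root WT 0 h replicate 2 (0.0376) or root WT 1 h replicate 3 (0.0350). It was at 34.7, 36.2 and 36.2 CPM in aoc root at 0 h and at 24.1, 25.9 and 31.5 CPM at 6 h, without overlap. This was a fall of 1.31-fold (log2 fold change -0.39 ± 0.13, adjusted p = 0.0230), not called without root aoc 0 h replicate 2 or 3 (0.0615 and 0.0534) or root aoc 6 h replicate 1 or 2 (0.114 and 0.0748).

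Between 1 h and 6 h in root, OsRbohB, OsRbohC and OsRbohH all fell, in both genotypes. This made 3 of 8 tested genes lower and 0 higher in WT, with 36.4% of all identifiers called, and the same in aoc, with 35% called. Of the 26195 identifiers, 4706 were lower and 4830 higher in WT, and 4669 lower and 4500 higher in aoc. The median log2 change of the 8 genes from 1 h to 6 h was -0.57 in WT and -0.54 in aoc, against 0.03 and 0.02 over all identifiers. OsRbohB fell 1.85-fold in WT (log2 change -0.89 ± 0.20, edgeR adjusted p = 0.00193) and 1.54-fold in aoc (-0.62 ± 0.20, adjusted p = 0.0234). OsRbohC fell from 43.7 ± 5.2 to 29.5 ± 4.7 CPM in WT (SD, n = 3, adjusted p = 0.00199) and from 40.6 ± 5.2 to 27.2 ± 3.9 CPM in aoc (adjusted p = 0.00181). In each of these 4 cases, and for OsRbohH in both genotypes, the libraries of the 2 hours did not overlap. These genes were already called, and the share of all identifiers without overlap was not counted, so this adds nothing to the calls. The aoc fall of OsRbohB was not called without root aoc 1 h replicate 1 or 3 (adjusted p = 0.0663 and 0.0630) or root aoc 6 h replicate 1 or 2 (0.107 and 0.0872), nor with the compared groups alone (0.0679). OsRbohE was called lower at 6 h than at 1 h in WT without root WT 6 h replicate 2 (log2 change -0.79, edgeR adjusted p = 0.0466). In aoc it was called without root aoc 6 h replicate 3 (-0.81, 0.0273), and OsRbohD was called in aoc without root aoc 1 h replicate 2 (-1.27, 0.0442). From 6 h to 72 h, 0 of 8 genes were called in WT (15.3% of all identifiers) and 0 of 8 in aoc (9.27%), with an unadjusted edgeR p under 0.05 for 0 and 1 gene and 0 calls by DESeq2.

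**Figure D3:**
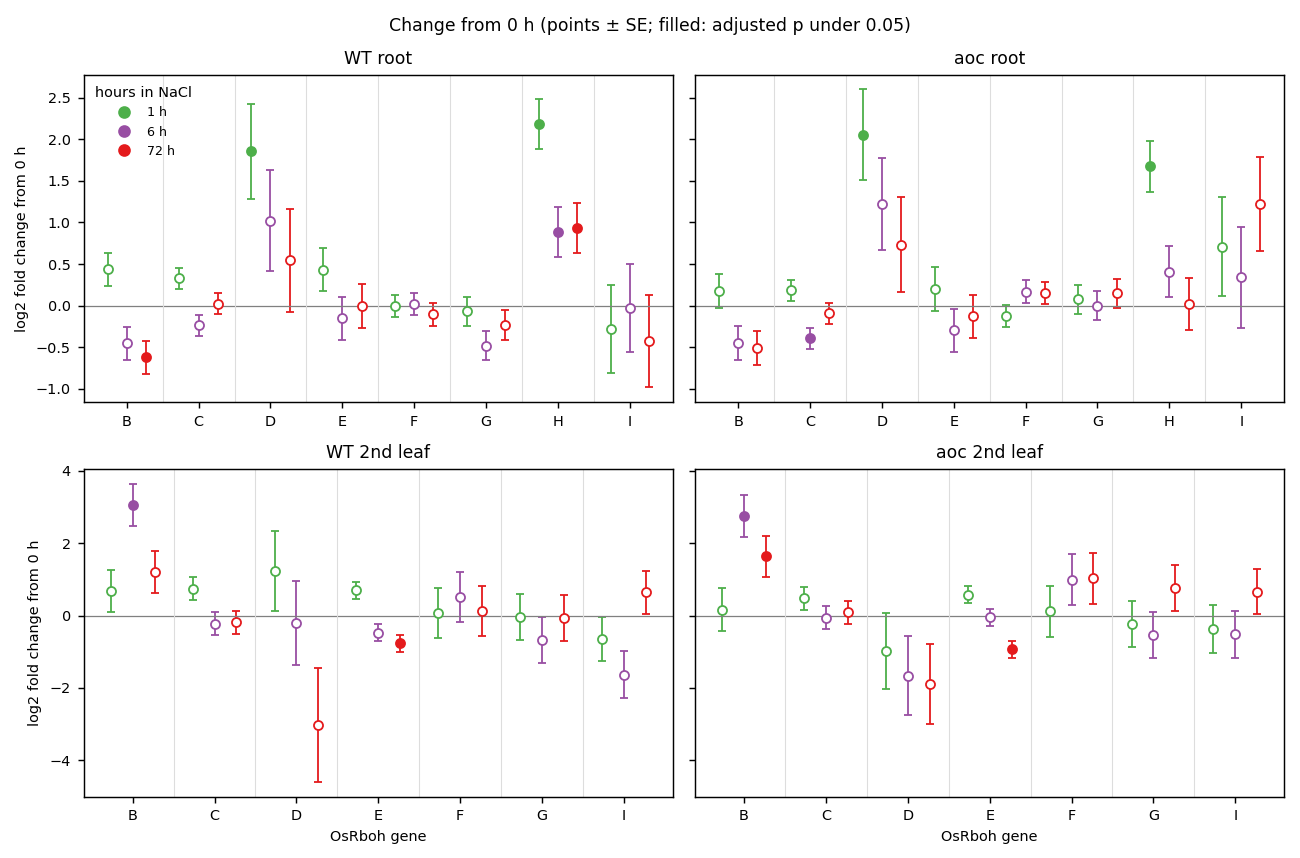
Log2 fold change from 0 h for each tested gene in root (upper row) and 2nd leaf (lower row) of WT and aoc; points are edgeR estimates ± SE at 1 h (green), 6 h (purple) and 72 h (red), and filled points have an adjusted p under 0.05. The largest filled points are OsRbohB in leaf at 6 h, at 3.06 in WT and 2.75 in aoc, and in root OsRbohH and OsRbohD at 1 h.

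In the leaf, the clearest change was a rise of OsRbohB at 6 h in both genotypes, and OsRbohE fell at 72 h in both. At 1 h, 0 of 7 tested genes were called in WT or in aoc, where 1.28% and 0.654% of all identifiers were called. An unadjusted edgeR p lay under 0.05 for 2 genes in WT and 1 in aoc, and DESeq2 called 0. At 6 h, 1 of 7 rose in WT (29.2% of all identifiers called) and 1 of 7 in aoc (35.6%). At 72 h, 1 of 7 fell in WT (28.6%), and 1 of 7 rose and 1 fell in aoc (30.5%).

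OsRbohB in WT leaf was at 0.504, 0.157 and 0.529 CPM at 0 h and at 0.524, 0.453 and 0.937 CPM at 1 h. At 6 h it was at 3.95, 1.75 and 4.25 CPM, and at 72 h at 0.368, 1.30 and 1.06 CPM. The 6 h libraries lay above those of every other hour. It rose 8.34-fold from 0 h to 6 h (log2 fold change 3.06 ± 0.59 SE, edgeR adjusted p = 0.000893) and fell 3.64-fold from 6 h to 72 h (-1.86 ± 0.55, adjusted p = 0.0174). Against 0 h, its 72 h level was not called, but without leaf WT 72 h replicate 1 it was called higher (1.57, adjusted p = 0.0437).

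In aoc leaf, OsRbohB was at 0.428, 0.556 and 0.481 CPM at 0 h and at 0.515, 0.519 and 0.612 CPM at 1 h. At 6 h it was at 3.28, 2.80 and 3.82 CPM and at 72 h at 0.528, 2.99 and 1.07 CPM, where replicate 2 stood apart. It rose 6.71-fold from 0 h to 6 h (log2 fold change 2.75 ± 0.58, edgeR adjusted p = 0.00129). At 72 h it was still called higher than at 0 h (1.64 ± 0.57, adjusted p = 0.0372), but without leaf aoc 72 h replicate 2 the log2 fold change was 0.70 (adjusted p = 0.359). That call was also lost without leaf aoc 0 h replicate 1, 2 or 3 (adjusted p = 0.1, 0.0814 and 0.0827). The change from 6 h to 72 h in aoc leaf was not called with all libraries. Without leaf aoc 72 h replicate 2 it was called as a fall (log2 change -2.05, adjusted p = 0.0093). The 6 h rises were called with each compared library left out in turn, and the leaf WT fall to 72 h was not without leaf WT 6 h replicate 1 or 3 (0.0582 and 0.0614) or leaf WT 72 h replicate 1 or 3 (0.0634 and 0.0550). With the compared groups alone, neither the aoc value at 72 h (0.152) nor this WT fall (0.0693) was called.

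OsRbohE, like OsRbohI a gene with more transcript in leaf than in root before salt, was at 13.2, 9.97 and 14.9 CPM in WT leaf at 0 h and at 20.2, 18.8 and 22.7 CPM at 1 h. It was at 9.26, 8.41 and 9.75 CPM at 6 h and at 6.81, 10.3 and 5.28 CPM at 72 h. The 1 h libraries lay above all others of WT leaf. In aoc leaf it was at 9.76, 10.5 and 8.08 CPM at 0 h, at 13.4, 11.1 and 17.8 CPM at 1 h, at 7.47, 8.82 and 11.2 CPM at 6 h, and at 6.22, 4.50 and 4.10 CPM at 72 h. Here the 72 h libraries lay below all others.

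Against 0 h, the 1 h value of OsRbohE was not called in leaf, at a log2 fold change of 0.70 ± 0.23 in WT (edgeR adjusted p = 0.173) and 0.58 ± 0.24 in aoc (adjusted p = 0.304), although the libraries did not overlap. At 72 h it was lower than at 0 h by 1.70-fold in WT (-0.76 ± 0.24, adjusted p = 0.0229) and by 1.91-fold in aoc (-0.93 ± 0.24, adjusted p = 0.00767). The WT call at 72 h was lost without leaf WT 0 h replicate 1 or 3 (adjusted p = 0.0587 and 0.0992) or leaf WT 72 h replicate 1 or 3 (0.0551 and 0.121), and the aoc call was kept with each compared library left out. A fit of the compared groups alone called neither the WT nor the aoc fall (adjusted p = 0.137 and 0.0615). With the 6 leaf 72 h libraries out of the fit, the WT value at 1 h was called (0.70, adjusted p = 0.0463).

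Between neighbouring hours in leaf, OsRbohB rose from 1 h to 6 h while OsRbohE and OsRbohC fell in WT. In WT, 1 of 7 tested genes rose and 2 fell from 1 h to 6 h (26.9% of all identifiers called), and in aoc 1 rose (27.6%). From 6 h to 72 h, 1 rose and 1 fell in WT (30.3%) and 1 fell in aoc (23%). The log2 change of OsRbohB from 1 h to 6 h was 2.37 ± 0.57 in WT (edgeR adjusted p = 0.00473) and 2.58 ± 0.58 in aoc (adjusted p = 0.00307). OsRbohE fell 2.25-fold over the same hours in WT (-1.17 ± 0.24, adjusted p = 0.00169). In aoc its log2 change was -0.63 ± 0.24 (adjusted p = 0.0559), which was called without leaf aoc 1 h replicate 2 (0.0443) or leaf aoc 6 h replicate 3 (0.0393). With all compared libraries, DESeq2 called this aoc fall (adjusted p = 0.0225). So did edgeR with RLE in place of TMM factors (0.0370), without the filter on low counts (0.0433) or with the leaf 72 h libraries out of the fit (0.0182).

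OsRbohC in WT leaf was at 8.48, 7.22 and 7.89 CPM at 1 h and at 4.56, 3.77 and 3.81 CPM at 6 h, without overlap, a fall of 1.94-fold (log2 change -0.96 ± 0.32, edgeR adjusted p = 0.0313). With any 1 of those 6 libraries left out this call was lost, at adjusted p of 0.0589 to 0.0935. From 6 h to 72 h, OsRbohE fell 1.85-fold in aoc leaf (-0.89 ± 0.24, adjusted p = 0.0136), a call lost without leaf aoc 6 h replicate 3 (0.0689) or leaf aoc 72 h replicate 3 (0.0774), or when only the compared groups were fitted (0.124).

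OsRbohI, for which 1 to 27 reads were counted in a leaf library, was at 0.356, 0.548 and 0.352 CPM in WT leaf at 0 h and at 0.291, 0.198 and 0.312 CPM at 1 h. It was at 0.108, 0.224 and 0.0591 CPM at 6 h and at 0.342, 0.719 and 0.920 CPM at 72 h. The 6 h libraries were lower than those of 0 h and 72 h without overlap. It rose 4.85-fold from 6 h to 72 h in WT leaf (log2 change 2.28 ± 0.64, edgeR adjusted p = 0.0138). The call was lost without leaf WT 6 h replicate 1 or 3 (adjusted p = 0.0607 and 0.0639) or leaf WT 72 h replicate 3 (0.0717), or when only the compared groups were fitted (0.0548). Its log2 fold change from 0 h to 6 h in WT leaf was -1.63 ± 0.64 (adjusted p = 0.0633), called without leaf WT 6 h replicate 2 (-2.25, adjusted p = 0.0420). DESeq2 called this change with all libraries (-1.68, adjusted p = 0.0456), as did edgeR with the leaf 72 h libraries out of the fit (adjusted p = 0.04997).

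Between the genotypes, 1 gene of the family was called, and in root alone. OsRbohB was lower in aoc root than in WT root before salt and at each hour of salt, by 1.69-fold to 2.18-fold. It was the 1 gene of 8 called in root at 0 h, where 0.756% of all identifiers were called, and likewise 1 of 8 at 1 h (3.5%), at 6 h (2.65%) and at 72 h (3.24%). No member was higher in aoc root at any hour by this test.

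The WT values of OsRbohB in root are given above. In aoc root OsRbohB was at 5.01, 5.45 and 5.82 CPM at 0 h, at 6.49, 5.47 and 6.48 CPM at 1 h, at 3.26, 3.57 and 5.12 CPM at 6 h, and at 3.55, 4.49 and 3.41 CPM at 72 h. At each of the 4 hours the highest aoc library lay below the lowest WT library. The log2 difference, aoc minus WT, was -0.87 ± 0.20 at 0 h (edgeR adjusted p = 0.0490), -1.13 ± 0.20 at 1 h (adjusted p = 0.00273), -0.86 ± 0.20 at 6 h (adjusted p = 0.0236) and -0.76 ± 0.20 at 72 h (adjusted p = 0.0486).

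The difference of OsRbohB at 1 h was called with each compared library left out and under each other setting tried, and the other hours lay near the threshold. At 0 h, leaving out any 1 of the 6 libraries took the call away, at edgeR adjusted p of 0.0513 to 0.197. At 6 h it was lost without root aoc 6 h replicate 1 or 2 (adjusted p = 0.116 and 0.103) or root WT 6 h replicate 2 or 3 (0.105 and 0.0700). At 72 h it was lost without root aoc 72 h replicate 1, 2 or 3 (0.0778, 0.0851 and 0.201) or root WT 72 h replicate 2 or 3 (0.219 and 0.0691). A fit of the compared groups alone gave -0.87, -0.87 and -0.75 at 0, 6 and 72 h, with adjusted p of 0.104, 0.160 and 0.266. The calls at 0 h and 72 h were also lost with RLE in place of TMM factors (edgeR adjusted p = 0.0569 and 0.0526). Without the filter on low counts they were lost too (0.0569 and 0.0605). In order of mean root level, OsRbohB stood at 13.4, 9.92, 7.26 and 6.44 CPM in WT at 1, 0, 6 and 72 h, then at 6.15, 5.43, 3.99 and 3.82 CPM in aoc at 1, 0, 6 and 72 h. Every pair of neighbours in this order overlapped.

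**Figure D4:**
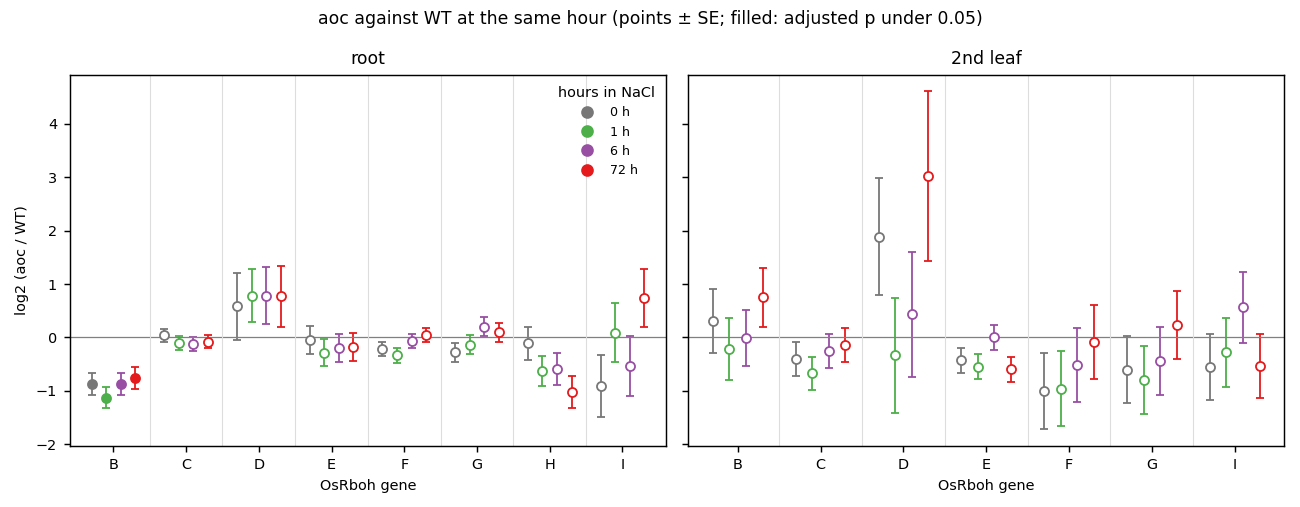
Log2 ratio of aoc to WT at the same hour for each tested gene in root (left) and 2nd leaf (right); points are edgeR estimates ± SE at 0 h (grey), 1 h (green), 6 h (purple) and 72 h (red), and filled points have an adjusted p under 0.05. The filled points are those of OsRbohB in root, from -1.13 to -0.76.

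Within root, OsRbohH had the lowest adjusted p between genotypes after OsRbohB. Its log2 difference, aoc minus WT, was -0.11 ± 0.31 at 0 h, -0.62 ± 0.28 at 1 h, -0.58 ± 0.30 at 6 h and -1.02 ± 0.30 at 72 h, with edgeR adjusted p of 0.940, 0.257, 0.367 and 0.0685. The libraries of the genotypes did not overlap at 6 h or 72 h. At 72 h DESeq2 called it (adjusted p = 0.0306), and so did edgeR without root aoc 72 h replicate 1 (-1.21, adjusted p = 0.0383).

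In leaf, OsRbohB was not called between genotypes. Its log2 difference there was 0.31 ± 0.59 at 0 h, -0.22 ± 0.58 at 1 h, -0.01 ± 0.53 at 6 h and 0.75 ± 0.55 at 72 h. Over the leaf comparisons of aoc with WT, 0 of 7 genes were called at 0 h (0.679% of all identifiers called), at 1 h (4.54%), at 6 h (0.489%) or at 72 h (2.88%). An unadjusted edgeR p under 0.05 was found for 0, 2, 0 and 1 gene at these hours, and DESeq2 called 0. OsRbohC and OsRbohE were the genes at 1 h, at -0.67 ± 0.32 and -0.54 ± 0.23 (adjusted p = 0.252 and 0.207), and OsRbohE was the gene at 72 h, at -0.60 ± 0.24 (adjusted p = 0.206).

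No gene of the family was called for a salt change that differed between the genotypes. In root this was 0 of 8 at 1 h (0.0115% of all identifiers called), at 6 h (0%) and at 72 h (0%), and in leaf 0 of 7 at 1 h (0%), 6 h (0.00411%) and 72 h (0%). The unadjusted edgeR p lay under 0.05 for 1 gene in root at 72 h and for 0 in each of the other comparisons, and DESeq2 called 0 in both tissues. That gene was OsRbohH, whose change from 0 h to 72 h was lower in aoc than in WT by -0.91 ± 0.43 on the log2 scale (adjusted p = 0.916). For OsRbohB in root the difference between the changes was -0.26 ± 0.28 at 1 h, 0.01 ± 0.29 at 6 h and 0.11 ± 0.29 at 72 h.

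Of the 7 genes tested in leaf as well as root, edgeR called a tissue difference in salt change for OsRbohB alone. OsRbohH could not be judged, as it had 0 leaf reads at 0 h, and OsRbohA was not tested. At 6 h OsRbohB was called higher than at 0 h in leaf and was not called in root, in both genotypes. In aoc root it was called lower at 6 h without root aoc 6 h replicate 3 (-0.67, edgeR adjusted p = 0.0249) and with the replicate number as a block (-0.45, 0.0473). The log2 change from 0 h in root minus that in leaf was -3.50 ± 0.58 in WT (edgeR adjusted p = 0.000142) and -3.16 ± 0.58 in aoc (adjusted p = 0.000191). At 72 h it was -1.84 ± 0.59 in WT (adjusted p = 0.0304) and -2.13 ± 0.59 in aoc (adjusted p = 0.0134). At 1 h it was -0.28 ± 0.59 and -0.04 ± 0.60, and neither was called.

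These were 1 of 8 genes at 6 h in WT (14.8% of all identifiers called), at 6 h in aoc (22.2%), at 72 h in WT (16.6%) and at 72 h in aoc (14%). At 1 h, 0 of 8 were called in WT (4.86%) and in aoc (7.02%), where an unadjusted edgeR p lay under 0.05 for 0 and 1 gene and DESeq2 called 0. The 6 h differences of OsRbohB held with each of the 12 compared libraries left out. The 72 h value in WT was not called without root WT 0 h replicate 2 or 3 (adjusted p = 0.0586 and 0.0594), root WT 72 h replicate 1 or 3 (0.0655 and 0.0630), leaf WT 0 h replicate 2 (0.105) or leaf WT 72 h replicate 2 or 3 (0.104 and 0.0773). The 72 h value in aoc was -1.23 (adjusted p = 0.131) without leaf aoc 72 h replicate 2, and neither 72 h value was called when the fit held the compared groups alone (0.109 for WT, 0.111 for aoc). OsRbohD, at 0.59 to 3.61 in the 6 comparisons with SEs of 1.13 to 1.64, was not called by edgeR, and DESeq2 called it at 6 h in aoc (2.99, adjusted p = 0.0460). Without leaf aoc 0 h replicate 1, which had 0 reads of it, edgeR called OsRbohD in aoc at 1, 6 and 72 h (adjusted p = 0.0251, 0.0141 and 0.0410), and at 6 h also without leaf aoc 6 h replicate 3 (0.0124). OsRbohH is counted among the 8, but its few leaf reads leave its leaf change undefined. Its test cannot decide the question, and no value is given.

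**Figure D5:**
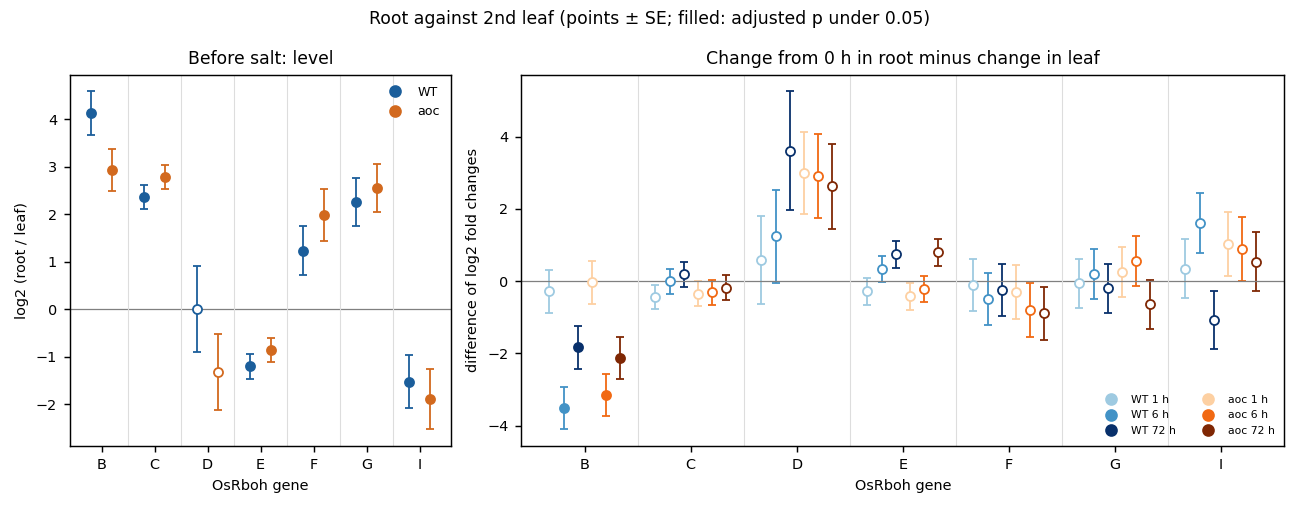
Root against 2nd leaf for 7 genes, without OsRbohA, which was not tested, and OsRbohH, which had 8 leaf reads: the log2 ratio of root to leaf at 0 h (left) and the log2 change from 0 h in root minus that in leaf (right); points are edgeR estimates ± SE for WT (blue) and aoc (orange), darker with hour on the right, and filled points have an adjusted p under 0.05. On the right the filled points are those of OsRbohB at 6 and 72 h, from -3.50 to -1.84.

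OsRbohF and OsRbohG, with at least 599 and 3520 reads in each root library, were not called in any comparison of hours or genotypes in the edgeR fit of all groups of a tissue. With the replicate number added to that fit as a block, OsRbohF was called in aoc leaf at 72 h against 0 h (1.19, edgeR adjusted p = 0.0305). OsRbohG was then called in WT root from 0 h to 6 h (0.0137) and from 1 h to 6 h (0.0231). Mean levels in root ran from 25.9 to 33.2 CPM for OsRbohF and from 116 to 162 CPM for OsRbohG. The largest root change of OsRbohG was that of WT at 6 h, from 159, 148 and 180 CPM at 0 h to 109, 120 and 120 CPM, without overlap. Its log2 fold change was -0.48 ± 0.18 (edgeR adjusted p = 0.0519), and it was called by DESeq2 (adjusted p = 0.0399) and by edgeR with the compared groups alone (0.0139), which also called its change from 1 h to 6 h (-0.40, adjusted p = 0.0155). For OsRbohF in root the log2 fold changes from 0 h lay between -0.12 and 0.17. At 1 h its log2 difference between genotypes was -0.34 ± 0.14 (adjusted p = 0.195), called without root aoc 1 h replicate 1 (-0.53, adjusted p = 0.0297), as was its change from 1 h to 6 h in aoc (0.49, adjusted p = 0.0083).

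In leaf both genes varied widely between replicates. The SD of OsRbohF was 41.8% to 96.2% of the mean over the 8 leaf groups, against 1.90% to 23.4% over the 8 root groups, and that of OsRbohG was 33.0% to 65.2% against 4.80% to 26.9%. In WT leaf at 0 h, for example, OsRbohF was at 14.8, 10.6 and 3.79 CPM and OsRbohG at 35.3, 27.4 and 8.63 CPM. The library of replicate 1 was the highest of its group in 7 of 8 leaf groups for OsRbohF, in 6 for OsRbohG and in 7 for OsRbohC, and that of replicate 3 was the lowest in 6, 5 and 5. Root levels could follow the replicate number too. There, replicate 3 was the highest in 8 of 8 groups for OsRbohG, and replicate 1 was the lowest in 7 of 8 for OsRbohE. For OsRbohF and OsRbohC no number was the highest in more than 4 root groups. Without leaf aoc 72 h replicate 2, OsRbohG was called higher at 72 h than at 6 h in aoc leaf (log2 change 1.76, edgeR adjusted p = 0.0351), where it was 1.30 ± 0.64 with all libraries. The labels do not say what the replicate numbers mark.

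OsRbohA was the least counted gene in root, with 109 reads over the 24 root libraries and 23 over the 24 leaf libraries. In WT root at 0 h it had 9, 7 and 3 reads, and in WT leaf at 0, 1 and 6 h it had 0 reads in all 9 libraries. With the floor of 3 counts over the leaf group, OsRbohA was at least 6.50-fold higher in WT root than in WT leaf at 0 h by unscaled counts. This bound too would be lower with the TMM factors of the 48 libraries, where the WT root mean was 0.158 CPM against 0.189 CPM unscaled. In aoc at 0 h it had 0, 2 and 2 reads in root and 1, 0 and 1 in leaf. The leaf library with the most reads was WT 72 h replicate 3, with 11. OsRbohI was near the same floor in root, at 2 to 12 reads in a library and mean levels of 0.106 to 0.256 CPM, and it was not called in any comparison within root.

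Among the 5 genes with a mean of at least 1 CPM over the 48 libraries, likeness was described by Pearson's r of log2(CPM + 0.5) over group means, which share their tissue, libraries and time course. Over the 8 root groups, r was 0.94 between OsRbohC and OsRbohE and 0.83 between OsRbohB and OsRbohE. Over the 8 leaf groups, r was 0.81 between OsRbohC and OsRbohE and -0.48 between OsRbohB and OsRbohE. Over all 16 groups, where the tissues lie apart, the highest r within the family was 0.96, between OsRbohC and OsRbohG. Of all identifiers tested, Os09g0100800 was most like OsRbohB (r = 0.96), Os07g0679000 most like OsRbohC (0.99), Os06g0255700 most like OsRbohE (0.96), Os11g0587600 most like OsRbohF (0.97) and Os04g0506100 most like OsRbohG (0.99). The sources used here give no names for these identifiers.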

How the data were processed

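Raw counts per identifier were deposited by the authors in 1 table of 48 libraries. The submitters' processing notes name fastp, HISAT2, DESeq2 and the build IRGSP-1.0, while no source used here gives the counting tool, strand setting, annotation or treatment of reads shared by similar genes. The quasi-likelihood F test of edgeR 4.0.16 (R 4.3.3) was run robustly, after TMM scaling and filterByExpr, on 24 libraries in the root fit (26195 identifiers tested), 24 in the leaf fit (24317) and 48 in the fit between tissues (27323). Every adjusted p is Benjamini-Hochberg adjusted over all identifiers of a comparison and comes from edgeR unless DESeq2 1.42.0 is named, and an SE is the log2 fold change over the root of F. These fits gave the 42 comparisons. On simulated data each fit was tried in a single comparison, WT 1 h minus 0 h in root and in leaf, and WT 0 h root minus leaf. Comparisons of genotypes, of later hours and of differences between changes were not simulated, nor was an effect of the replicate number. The 9 genes, all of them named in the text, and the tests were chosen with earlier results of these data known. Alternatives were RLE factors, no filter, DESeq2, the replicate number as a block, the compared groups alone, each library left out in turn, and fits without 2 uneven leaf libraries or without those of leaf at 72 h. Of 35 identifiers listed for related pathways, 0 have a name in the reference table (another assembly), and they were not analysed here. Reads carry no molecular identifiers, so floors cover counting error only.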

Additional observations from a re-analysis of the deposited data

Results flagged for a closer look

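OsRbohB changed differently in root and leaf under the same salt treatment, in a test of that difference within 1 fit. Its log2 change from 0 h in root minus that in leaf was -3.50 at 6 h and -1.84 at 72 h in WT, and -3.16 at 6 h and -2.13 at 72 h in aoc. The 6 h calls held with each compared library left out, and the 72 h calls did not. With the compared groups alone the 72 h values were not called (edgeR adjusted p = 0.109 in WT and 0.111 in aoc). Without leaf aoc 72 h replicate 2 the aoc value at 72 h was -1.23 (0.131). Tissue and RNA extraction kit cannot be told apart in these values.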

How the results depend on the processing

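Of the values for single genes, 0 reversed direction while called under any alternative, and 228 of 3567 values uncalled in both fits had the other sign. Calls changed in 147 gene values, 102 lost and 45 gained, among 4499 that also count the values of the fit used, which cannot change. A call could be lost only by the 46 pairs of gene and comparison that the fit used had called. The number of calls in root from 0 h was 8 and became 13 with the replicate block. The block added OsRbohB and OsRbohC in WT at 1 h (edgeR adjusted p = 0.0454 and 0.0415), OsRbohG in WT at 6 h (0.0137) and OsRbohB in aoc at 6 h and 72 h (0.0473 and 0.0386). It also added OsRbohG (0.0231) and OsRbohE (0.0150) in WT root and OsRbohE in aoc root (0.0316) from 1 h to 6 h, OsRbohH for aoc against WT in root at 72 h (0.0315) and OsRbohF in aoc leaf at 72 h (1.19, 0.0305), and it took no call away. The numbers of aoc against WT in root were 4 by the fit used and 1 with the compared groups alone, 2 without a filter and 2 with RLE size factors. With the compared groups alone, the leaf calls from 0 h went from 5 to 2, the leaf calls between hours from 7 to 4 and the tissue differences in salt change from 4 to 2. With the leaf 72 h libraries out of the fit, leaf calls from 0 h other than 72 h went from 2 to 4. Leaving out 1 library gave 4 to 10 calls in root from 0 h, 1 to 4 for aoc against WT in root, 4 to 9 between hours in leaf and 3 to 8 for tissue differences in salt change, where the most came without leaf aoc 0 h replicate 1. In groups reduced to 2 libraries the spread is pooled over groups. The replicate numbers were not taken as pairs: deviations correlated above 0.1 in 64 of 84 pairs in root and 58 of 84 in leaf, and 22 of 24 root and 18 of 24 leaf libraries correlated best with their own number, a hint from the data and not from the design. Depth limits OsRbohA, OsRbohD and OsRbohI, and OsRbohH in leaf.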
